A study of Mus musculus with 10 samples.

Results

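The nuclear-encoded subunits of respiratory complexes II to V were examined in left-ventricular cardiac myocytes. Members were protein-coding genes chosen by name: Sdha to Sdhd, Cyc1, Cycs, and the genes whose old or new symbol begins with Uqcr, Cox4, Cox5, Cox6, Cox7, Cox8 or Atp5. The deposited values held 51 such genes among 45882 gene IDs, of which 21521 were protein-coding: 4 of complex II, 9 of complex III, cytochrome c itself, 16 of complex IV and 17 of complex V. The other members, Cox7a2l, Atpif1, Atp5s and Dmac2, carry such a name without being subunits, and 1 further complex IV gene that the naming rule reaches is not analysed here. The 10 libraries came from adult C57BL/6 mice, each library from a mouse with its own number: 4 labelled CTCF knockout, 3 labelled TAC (transverse aortic constriction, an operation that narrows the aortic arch so that the ventricle ejects against higher pressure) and 3 labelled control. CTCF is a DNA-binding protein that shapes chromatin loops. The labels used here do not give the Cre line or promoter behind the knockout, the genotype of the TAC and control mice, the time since surgery, the sex or an exact age. Ribosomal RNA was depleted and stranded paired-end libraries were sequenced on an Illumina HiSeq, per the labels' protocols.

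Complex II (succinate dehydrogenase) passes electrons from succinate to ubiquinone, complex III passes them on to cytochrome c, and complex IV (cytochrome c oxidase) hands them to oxygen. Complexes III and IV pump protons across the inner mitochondrial membrane, and complex V (ATP synthase) lets them flow back to make ATP. Heart muscle depends on this chain for most of its ATP, and mammals use muscle-type isoforms of some complex IV subunits in heart and skeletal muscle in place of the forms found in most tissues.

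Levels are FPKM (fragments mapped to a transcript, relative to its length and to all mapped fragments), summed over the transcripts of a gene and rescaled between libraries by factors of 0.912 to 1.10. Read counts are not among the values, so the depth per library is unknown. The authors' coverage per FPKM, which follows depth, differed 1.56-fold between the extreme libraries. For the transcript that dominated each of 47 members with at least 5 FPKM in every library, the 95% interval reported by Cufflinks had a median half-width of 4.84% of the value, while the median coefficient of variation between libraries of a group was 13.2% in knockout, 14.7% in TAC and 10.1% in control libraries. Ctcf itself measured 2.90, 4.01, 2.60 and 4.42 FPKM in the knockout libraries, 7.32, 5.70 and 5.22 FPKM in the TAC libraries and 8.81, 8.34 and 6.80 FPKM in the control libraries. It was lower in the knockout libraries by 1.02 on the log2 scale (limma adjusted p = 0.00136). Summed cardiac myocyte markers, all 12 detected, came to 26071 to 34391 FPKM in knockout, 27861 to 34651 FPKM in TAC and 34189 to 37313 FPKM in control libraries. Single myocyte markers went both ways against control: 2 rose and 5 fell in the knockout, and 2 rose and 3 fell in TAC. Over all tested genes 10.6% rose and 10.2% fell in the knockout, and 8.08% rose and 7.37% fell in TAC. Summed fibroblast markers, all 10 detected, came to 172 to 259 FPKM in knockout, 232 to 257 FPKM in TAC and 76.8 to 141 FPKM in control libraries. Of the 9 tested, 5 rose in each comparison with control, beside the same 10.6% and 8.08% of all tested genes. Endothelial sums ran at 117 to 191 FPKM in knockout, 157 to 174 FPKM in TAC and 120 to 173 FPKM in control libraries, and macrophage sums at 70.6 to 121 FPKM in knockout, 101 to 117 FPKM in TAC and 65.3 to 90.8 FPKM in control libraries. Erythroid sums varied widely, at 130 to 632 FPKM in knockout, 951 to 1676 FPKM in TAC and 288 to 1198 FPKM in control libraries, and all 5 erythroid markers lay lower in every knockout than in any TAC library. Hepatocyte sums were low throughout, at 0.531 to 2.19 FPKM in knockout, 0.959 to 1.31 FPKM in TAC and 6.14 to 8.96 FPKM in control libraries. Fewer cells of a type and less RNA per cell cannot be told apart in these bulk samples, and the part of any marker list in the results that follow was not tested.

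In some libraries most members deviated in the same direction. In knockout library 4, 45 of the 47 well-expressed members lay below their mean over all libraries, with a median deviation of -0.29 (log2). TAC library 1 had 43 of 47 below (median -0.22), and control library 2 had 45 of 47 above (median 0.22). Most other libraries were one-sided too. Knockout library 3 had 42 above and 5 below, control library 3 had 39 and 8, and TAC library 3 had 38 and 9. Control library 1 had 12 above and 35 below. Knockout library 2 was the most even, with 20 above and 27 below. These deviations are from the mean over all libraries, so they hold differences between groups as well as the spread within a group. No such count was made over all genes. Each call of a named gene was repeated without each library in turn.

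Levels differed widely between members. Atp5b, the catalytic beta subunit of ATP synthase, was the highest member, with 2968, 2641, 2909 and 2313 FPKM in knockout libraries, 2287, 2721 and 2719 FPKM in TAC libraries and 2632, 3037 and 3078 FPKM in control libraries. The groups overlapped, and its log2 fold change was -0.11 for knockout over control and -0.18 for TAC over control. By mean over the 10 libraries, the iron-sulphur subunit Sdhb was highest within complex II, at 460 ± 61.0 FPKM in knockout (SD, n = 4), 494 ± 56.8 FPKM in TAC (n = 3) and 553 ± 35.7 FPKM in control libraries (n = 3), and the membrane anchor Sdhc was lowest, at 247 ± 43.8 FPKM in knockout, 189 ± 27.9 FPKM in TAC and 239.7 ± 23.0 FPKM in control libraries. In knockout libraries alone Sdhd averaged slightly less than Sdhc, at 245 FPKM. Neither Sdhb nor Sdhc passed the test.

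Within complex III, Uqcr11 was highest, at 939 ± 139 FPKM in knockout, 854 ± 128 FPKM in TAC and 874 ± 115 FPKM in control libraries. Uqcrq, a small subunit of the same complex, was lowest, at 56.9 ± 4.72 FPKM in knockout, 70.5 ± 14.8 FPKM in TAC and 57.9 ± 3.81 FPKM in control libraries. The other members of complex III averaged between these. Cycs, the electron carrier cytochrome c, stood at 315 ± 45.3 FPKM in knockout, 339 ± 50.5 FPKM in TAC and 357 ± 48.0 FPKM in control libraries.

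In complex IV the muscle-type Cox7a1 was highest and the testis-type Cox6b2 lowest of those tested by mean over the 10 libraries, but not in every group. Cox7a1 averaged 1002 FPKM in knockout libraries, below Cox6c (1127) and Cox6b1 (1121), and 1010.5 FPKM in TAC libraries, below Cox6b1 (1035); in knockout libraries Cox4i2 averaged less than Cox6b2. Cox6b2 was listed at 1.13, 0.575, 1.25 and 4.44 FPKM in knockout libraries, at 0.136, 0.715 and 0.277 FPKM in TAC libraries and at 0.691, 0.638 and 1.08 FPKM in control libraries, so knockout library 4 stood above the others. The lowest member of complex V was Atp5g2, at 123 ± 16.4 FPKM in knockout, 111 ± 19.7 FPKM in TAC and 141 ± 17.0 FPKM in control libraries. The limit for testing, a mean of 1 FPKM, left out 2 testis-type genes: Cox7b2 had at most 0.535 FPKM in any library, and Cox8c was listed at 0 in all 10.

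**Figure D1:**
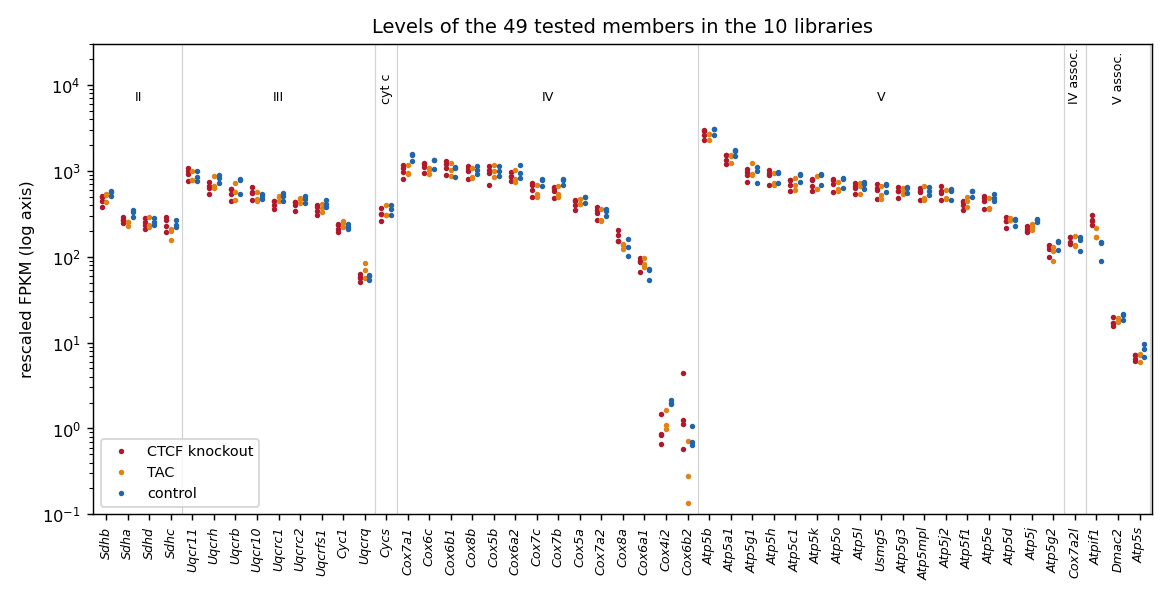
Rescaled FPKM (log axis) of the 49 tested members in each library, grouped by complex and ordered by mean level within it; points are libraries, coloured by CTCF knockout (n = 4), TAC (n = 3) and control (n = 3). Atp5b lies highest, at 2287 to 3078 FPKM, and Cox4i2 and Cox6b2 lie near 1 FPKM.

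The first comparison sets these genes in libraries labelled CTCF knockout against those in libraries labelled control. Of 49 members tested, Atpif1 rose and Cox7a1, Cox4i2, Atp5f1 and Atp5j fell. The other 44 did not pass (limma, adjusted p under 0.05 over 11358 genes). Over all tested genes 20.8% were called, 10.6% higher and 10.2% lower, so the share of members called was below the background. The median log2 fold change of the members was -0.12, beside -0.01 over all tested genes, and 38 of 49 had a negative value. Single libraries moved this median: it was -0.03 without knockout library 4, -0.08 without control library 2, -0.19 without knockout library 3 and -0.20 without control library 1. It was 0.01 with no rescaling and 0.05 after division by the library sum, where the median of all genes was 0.10 and 0.14. By complex the medians were -0.16 for II, -0.20 for III, -0.12 for IV and -0.12 for V.

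The comparison of TAC with control myocytes asks how these genes differ under pressure load. Cox7a1 and Sdha fell, none rose and 47 members did not pass, where 15.5% of all tested genes were called, 8.08% higher and 7.37% lower. The median log2 fold change of the members was -0.17, beside -0.00 over all tested genes, and 40 of 49 were negative. That median ran from -0.25 without TAC library 3 to -0.09 without TAC library 1, and was -0.10 without control library 2 and -0.04 after division by the library sum, where that of all genes was 0.11. By complex the medians were -0.26 for II, -0.05 for III, -0.18 for IV and -0.21 for V. Both comparisons share the control libraries.

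**Figure D2:**
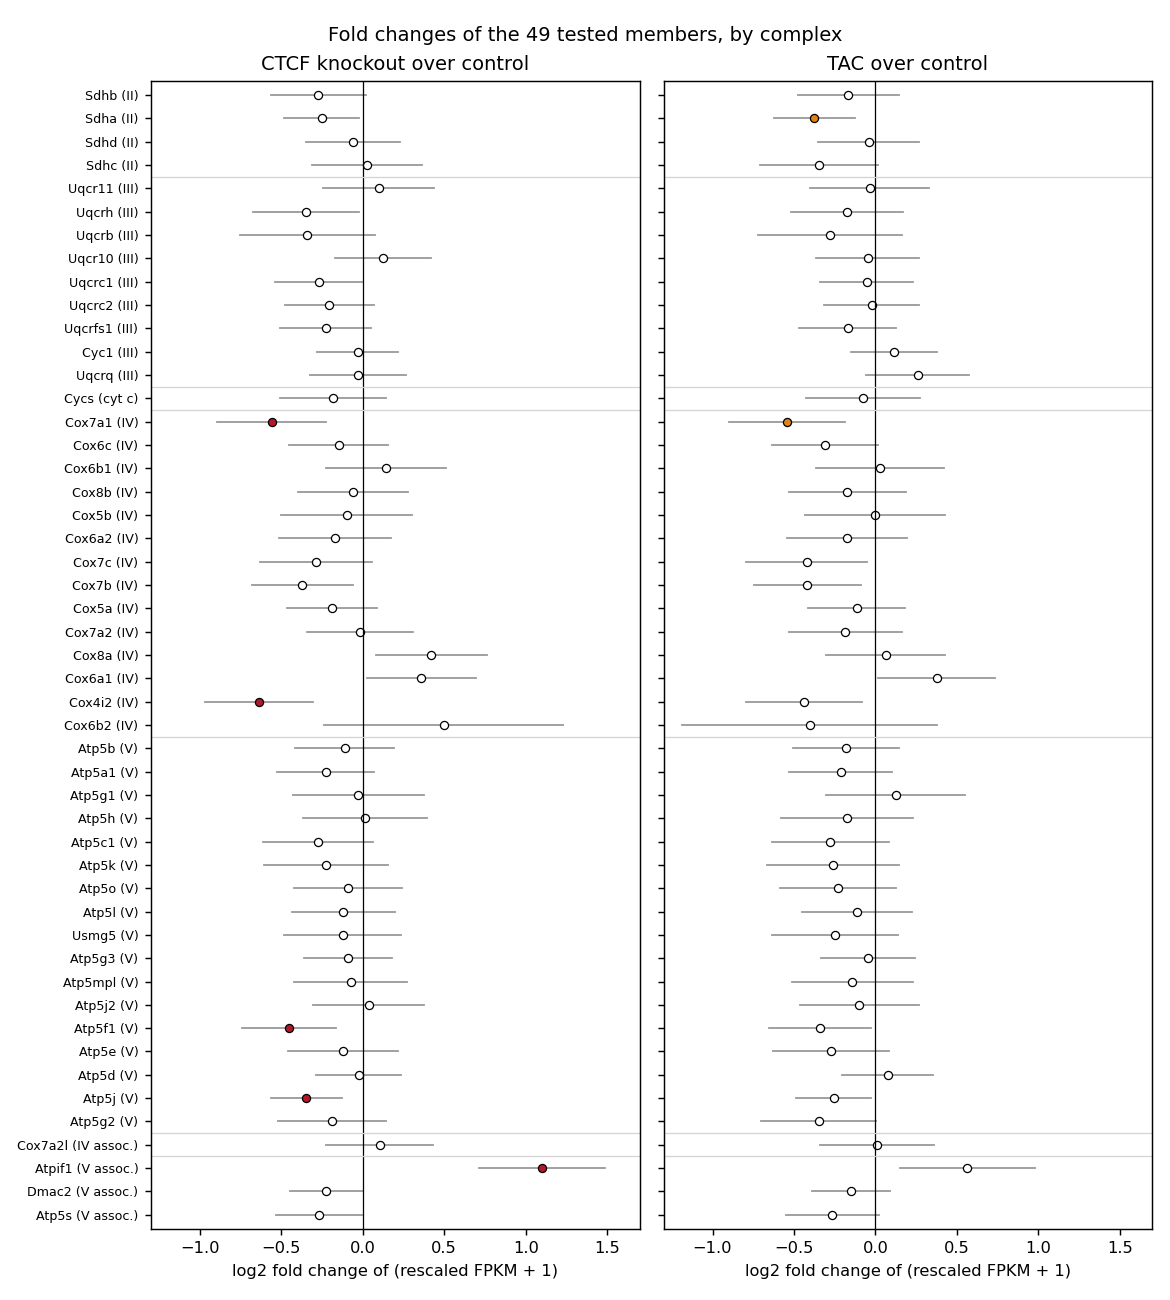
Log2 fold change of (rescaled FPKM + 1) with its 95% interval for the 49 tested members, CTCF knockout over control on the left and TAC over control on the right; filled points passed the test (limma, adjusted p under 0.05). Atpif1 stands apart on the high side at 1.10 in the knockout, and most other points lie a little below 0 in both panels.

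In complex II the catalytic, flavin-binding subunit Sdha (chr13:74322254-74350280, mm10, minus strand) measured 271, 269, 288 and 246 FPKM in knockout libraries, 257, 256 and 227 FPKM in TAC libraries and 346, 288 and 327 FPKM in control libraries. All TAC values lay below all control values, while the highest knockout value just exceeded the lowest control value. The fall in TAC was 0.38 on the log2 scale (SE 0.11, limma adjusted p = 0.0448). It passed in 2 of the 10 fits that left out a library, with adjusted p up to 0.133, and in 9 of the 17 other alternatives. In the knockout Sdha had a log2 fold change of -0.25 and did not pass (adjusted p = 0.117). The other 3 subunits passed in neither comparison, and no member of complex III or Cycs did. The 9 complex III genes ranged from -0.35 to 0.12 in knockout over control and from -0.28 to 0.26 in TAC over control.

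In complex IV, 2 of 14 tested members fell in the knockout and 1 in TAC, where 10.2% of all tested genes were called lower in the knockout and 7.37% in TAC. Several subunits come as a muscle-type and a general form, which are given side by side. Cox7a1 (chr7:30184171-30186028, plus strand), the heart and skeletal muscle form of subunit 7a, measured 1067, 965, 1169 and 806 FPKM in knockout libraries, 937, 920 and 1175 FPKM in TAC libraries and 1308, 1583 and 1509 FPKM in control libraries. Every knockout and every TAC value lay below every control value. The log2 fold change was -0.56 in the knockout (SE 0.15, limma adjusted p = 0.0238) and -0.54 in TAC (SE 0.16, limma adjusted p = 0.0445). The knockout call was lost without control library 2, control library 3 or knockout library 2 (adjusted p up to 0.0876 over the fits without a library). The TAC call was lost without either of those control libraries, knockout library 1 or 2, or TAC library 1 or 2 (adjusted p up to 0.133).

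Cox7a2 (chr9:79755241-79759853, minus strand), the form of the same subunit found in most tissues, measured 349, 327, 379.8 and 268 FPKM in knockout libraries, 261, 268 and 357 FPKM in TAC libraries and 302, 358 and 340.4 FPKM in control libraries. The groups overlapped throughout. Its log2 fold change was -0.02 in the knockout (95% interval -0.34 to 0.31) and -0.19 in TAC (-0.53 to 0.16).

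The ratio of such forms within a library does not depend on the scaling between libraries. The share of Cox7a1 in the sum of both forms was 75.3, 74.7, 75.5 and 75.1% in knockout libraries, 78.2, 77.4 and 76.7% in TAC libraries and 81.3, 81.5 and 81.6% in control libraries. The 3 groups did not overlap, and the range within each was small. The log2 ratio of Cox7a1 over Cox7a2 averaged 1.60 ± 0.03 in knockout (SD, n = 4), 1.78 ± 0.06 in TAC (n = 3) and 2.14 ± 0.02 in control libraries (n = 3). It was lower than control by 0.54 in the knockout, between 0.53 and 0.55 without any 1 library, and by 0.36 in TAC, between 0.33 and 0.39. In the exact two-sided permutation test p was 0.0571 for the knockout and 0.1 for TAC, each the smallest that these group sizes allow, and 0.196 after adjustment over 12 tests of pairs. The difference between knockout and TAC ratios was not tested.

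Cox6a2 (chr7:128205436-128206366, minus strand) is the muscle form of subunit 6a. It measured 859, 853, 972 and 758 FPKM in knockout libraries, 743, 1034 and 811 FPKM in TAC libraries and 823, 937 and 1163 FPKM in control libraries. Its general partner Cox6a1 (chr5:115345642-115348981, minus strand) measured 89.4, 85.9, 96.1 and 66.0 FPKM in knockout libraries, 75.0, 83.1 and 97.2 FPKM in TAC libraries and 53.7, 72.3 and 70.6 FPKM in control libraries. All TAC values of Cox6a1 lay above the control values, and knockout library 4 alone of the knockout libraries reached into the control range. Cox6a1 had a log2 fold change of 0.36 in the knockout (adjusted p = 0.122) and 0.38 in TAC (adjusted p = 0.146), and it passed in the knockout without that library. The log2 ratio of Cox6a2 over Cox6a1 averaged 3.36 ± 0.11 in knockout, 3.34 ± 0.29 in TAC and 3.89 ± 0.18 in control libraries. Knockout and TAC ratios lay below all control ratios, with differences of -0.53 and -0.56 (exact permutation p = 0.0571 and p = 0.1, adjusted 0.196 each).

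Cox8b (chr7:140898943-140900446, minus strand), the muscle form of subunit 8, measured 1070, 991, 1140 and 793 FPKM in knockout libraries, 828, 859 and 1081 FPKM in TAC libraries and 929, 1151 and 1028 FPKM in control libraries. Its partner Cox8a (chr19:7215158-7217616, minus strand) measured 181, 154, 202 and 151 FPKM in knockout libraries, 137, 124 and 139 FPKM in TAC libraries and 101, 159.9 and 128 FPKM in control libraries. Cox8a had a log2 fold change of 0.42 in the knockout (adjusted p = 0.079) and 0.06 in TAC (adjusted p = 0.842), and neither passed. The log2 ratio of Cox8b over Cox8a averaged 2.53 ± 0.12 in knockout, 2.78 ± 0.18 in TAC and 3.02 ± 0.18 in control libraries. Every knockout ratio lay below every control ratio, with a difference of -0.48 (exact permutation p = 0.0571, adjusted 0.196). The TAC ratios overlapped with control, with a difference of -0.24 (exact permutation p = 0.2, adjusted 0.267).

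In all 3 pairs the muscle form made up a smaller part in every knockout library than in any control library. The share of Cox6a2 was 91.1 ± 0.615% in knockout and 93.7 ± 0.743% in control libraries, that of Cox7a1 was 75.1 ± 0.348% in knockout and 81.5 ± 0.177% in control libraries, and that of Cox8b was 85.3 ± 1.07% in knockout and 89.0 ± 1.21% in control libraries. The pairs are measured in the same libraries and are not independent of each other. The members differ in transcript length, from 362 nt for Cox8b and 364 nt for Cox7a1 to 754 nt for Cox7a2, and FPKM of very short transcripts is sensitive to fragment length.

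**Figure D3:**
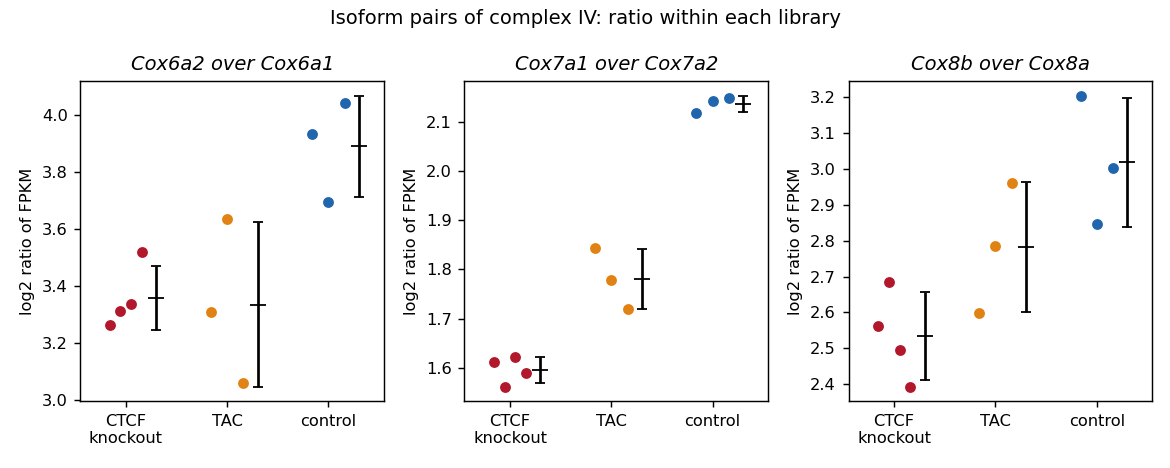
Log2 ratio of the muscle-type over the general form in each library for 3 complex IV pairs, from left to right CTCF knockout, TAC and control; points are libraries, bars mean ± SD, and the axes do not start at 0. The Cox7a1 over Cox7a2 ratios lie at 1.56 to 1.62 in knockout, 1.72 to 1.84 in TAC and 2.12 to 2.15 in control libraries.

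The sequences upstream of these genes are shown for the 7a and 8 pairs, since both forms of each had a RefSeq start (GRCm38.p6) at the start of their highest transcript. Each line gives the 250 bases before the start, 5′ to 3′ on the gene's own strand, with matches to the motifs searched in capitals.
Cox7a1, chr7:30183921-30184170, plus strand: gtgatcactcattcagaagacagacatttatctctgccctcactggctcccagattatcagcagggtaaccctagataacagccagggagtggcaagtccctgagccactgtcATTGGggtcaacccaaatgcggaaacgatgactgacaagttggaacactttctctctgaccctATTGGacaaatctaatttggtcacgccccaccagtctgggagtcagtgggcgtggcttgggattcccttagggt
Cox7a2, chr9:79759854-79760103, minus strand: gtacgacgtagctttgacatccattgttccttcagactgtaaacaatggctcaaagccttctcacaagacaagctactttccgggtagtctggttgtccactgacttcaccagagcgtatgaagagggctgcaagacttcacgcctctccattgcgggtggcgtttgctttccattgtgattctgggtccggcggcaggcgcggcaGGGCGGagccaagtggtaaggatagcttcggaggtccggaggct
Cox8b, chr7:140900447-140900696, minus strand: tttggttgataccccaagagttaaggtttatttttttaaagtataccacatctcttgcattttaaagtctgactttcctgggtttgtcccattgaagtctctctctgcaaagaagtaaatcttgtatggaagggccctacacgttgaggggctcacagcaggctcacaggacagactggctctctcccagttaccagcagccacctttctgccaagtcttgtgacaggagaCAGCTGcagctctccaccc
Cox8a, chr19:7217617-7217866, minus strand: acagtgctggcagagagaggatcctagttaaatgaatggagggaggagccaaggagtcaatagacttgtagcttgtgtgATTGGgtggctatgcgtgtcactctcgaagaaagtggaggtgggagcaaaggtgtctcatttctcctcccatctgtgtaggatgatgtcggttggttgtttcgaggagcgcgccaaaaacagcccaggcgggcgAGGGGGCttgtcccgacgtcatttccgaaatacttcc

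Motif letters were searched on both strands: SP1 as GGGCGG, ETS as CCGGAAG, the middle of the NRF1 site as GCATGCG, ERR as AAGGTCA, YY1 as GATGGCG, a muscle-type E-box as CAGCTG, the TATA box as TATAAA, and the CCAAT box by its own letters. A short piece of the much longer CTCF motif was searched as AGGGGGC. Cox7a1 held the CCAAT letters at -137 to -133 and -74 to -70 from the start, and Cox8a held them at -171 to -167 and the CTCF piece at -37 to -31. Cox7a2 held the SP1 letters at -44 to -39, and Cox8b the E-box letters at -19 to -14. Of 51 members, 40 had an entry, and in 30 the RefSeq start lay within 50 nt of the start of the highest transcript. Among these 30 windows CCAAT was in 66.7% (33.8% of 32851 windows of all genes), ETS in 26.7% (6.91%), the CTCF piece in 26.7% (9.43%), SP1 in 33.3% (32.7%), ERR in 6.67% (4.08%) and the E-box in 6.67% (13.0%). The NRF1 letters were in 3 of the 30 (3.02% of all windows), TATA in 3 (12.4%) and the YY1 letters in none (2.18%). The windows of the members had a median GC content of 54.0%, beside 52.4% over all. The 30 include Atp5s, Cox7a2l and Dmac2, which are not subunits, and the untested Cox7b2. The windows of all genes cover 27025 genes, some with several windows, and were not chosen by level or by the start of the highest transcript. A match of letters is a description, not a binding site.

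Cox4i2 (chr2:152754173-152765037, plus strand), a form of subunit 4 known to be induced by low oxygen, was close to the lower limit of testing. It measured 1.47, 0.657, 0.829 and 0.858 FPKM in knockout libraries, 0.973, 1.10 and 1.64 FPKM in TAC libraries and 1.91, 2.15 and 1.96 FPKM in control libraries. The groups did not overlap with control. The log2 fold change was -0.64 in the knockout (SE 0.15, limma adjusted p = 0.0121), and the call held in all 26 alternatives in which the gene was tested. On this scale with 1 FPKM added the change of so low a gene is understated: the knockout mean was 47.5% of the control mean. In TAC the log2 fold change was -0.44 (adjusted p = 0.0904). Summed smooth muscle and pericyte markers, all 8 detected, came to 52.4 to 68.8 FPKM in knockout, 65.3 to 70.2 FPKM in TAC and 79.1 to 108 FPKM in control libraries, while single markers, chosen after their values were seen, went both ways: Acta2 fell in the knockout and Cspg4 rose (limma log2 fold changes of -1.39 and 1.09). The part of those cells in the level of Cox4i2 was not tested.

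Cox7b, a small structural subunit, measured 624, 586, 653 and 487 FPKM in knockout libraries, 500.3, 539 and 668 FPKM in TAC libraries and 683, 806 and 782 FPKM in control libraries. All knockout and TAC values lay below control, with log2 fold changes of -0.37 (adjusted p = 0.0857) and -0.42 (adjusted p = 0.0835). It was chosen for naming after its values were seen. Cox6b1, which with Cox6b2 forms a further pair, averaged 1121 ± 178 FPKM in knockout, 1035 ± 179 FPKM in TAC and 1010.0 ± 133 FPKM in control libraries, and the log2 ratio of Cox6b2 over Cox6b1 overlapped between groups in both comparisons, at -9.65 ± 1.40 in knockout, -11.7 ± 1.12 in TAC and -10.3 ± 0.40 in control libraries.

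In complex V, 2 of 17 members fell in the knockout and none passed in TAC (2 at unadjusted p under 0.05, limma), near the 10.2% of all tested genes called lower in the knockout. Atp5f1 (chr3:105942698-105960099, minus strand), subunit b of the peripheral stalk, measured 432, 395, 451 and 346 FPKM in knockout libraries, 377, 448 and 494 FPKM in TAC libraries and 498, 577 and 589 FPKM in control libraries. The log2 fold change was -0.45 in the knockout (SE 0.13, limma adjusted p = 0.0324) and -0.34 in TAC (adjusted p = 0.131). Atp5j (chr16:84827866-84835625, minus strand), coupling factor 6 of the same stalk, measured 199, 230, 212 and 196 FPKM in knockout libraries, 238, 207 and 222 FPKM in TAC libraries and 270, 275 and 253 FPKM in control libraries. Its log2 fold change was -0.35 in the knockout (SE 0.10, limma adjusted p = 0.0292) and -0.26 in TAC (adjusted p = 0.128). Neither gene's knockout or TAC values reached the control range. The Atp5f1 call was lost without control library 2 or 3 or knockout library 2 or 4 (adjusted p up to 0.103), and the Atp5j call without any 1 of the control libraries or without knockout library 1, 3 or 4 (adjusted p up to 0.093). The other 15 members of complex V did not pass in the knockout.

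In both genes the transcript with the largest difference in FPKM was one that the annotation does not class as coding; some low coding transcripts differed as much in ratio. For Atp5f1 the share of the 1311-nt nonsense-mediated decay transcript in the gene's FPKM was 28.8, 33.0, 30.8 and 36.0% in knockout libraries, 36.0, 34.4 and 33.0% in TAC libraries and 44.6, 37.2 and 44.4% in control libraries. Its level averaged 129 ± 6.67 FPKM in knockout, 151 ± 14.1 FPKM in TAC and 233 ± 25.3 FPKM in control libraries, whereas the 1604-nt coding transcript averaged 267 ± 42.3 FPKM in knockout, 278 ± 45.8 FPKM in TAC and 306 ± 44.3 FPKM in control libraries. For Atp5j a 526-nt retained-intron transcript averaged 119 ± 21.97 FPKM in knockout, 145 ± 21.7 FPKM in TAC and 173 ± 17.4 FPKM in control libraries, and the 809-nt coding transcript averaged 62.2 ± 5.12 FPKM in knockout, 54.4 ± 8.24 FPKM in TAC and 59.7 ± 11.7 FPKM in control libraries. With coding transcripts only, neither gene was called in the knockout (log2 fold change -0.22, adjusted p = 0.342 for Atp5f1, and -0.01, adjusted p = 0.955 for Atp5j). These transcripts were chosen after their values were seen, and short reads split the transcripts of 1 gene with less certainty than they give its sum.

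In Cycs the coding transcript differed. This 3123-nt transcript averaged 122 ± 13.0 FPKM in knockout, 136 ± 18.0 FPKM in TAC and 184 ± 25.3 FPKM in control libraries, and a 607-nt transcript annotated as retained intron averaged 193 ± 32.7 FPKM in knockout, 203 ± 36.6 FPKM in TAC and 173 ± 32.8 FPKM in control libraries. The coding transcript's share was 39.8, 37.9, 37.1 and 41.1% in knockout libraries, 38.0, 44.2 and 38.7% in TAC libraries and 50.3, 47.9 and 56.8% in control libraries. Neither knockout nor TAC shares overlapped with control. With coding transcripts only, Cycs was called lower in the knockout (log2 fold change -0.58, limma adjusted p = 0.00731) and in TAC (-0.44, adjusted p = 0.0452). Without each library in turn the knockout call held in all 10 fits, and the TAC call in 3, those without control library 1, knockout library 4 or TAC library 3 (adjusted p up to 0.142). On the gene sum Cycs passed in neither comparison (limma adjusted p = 0.434 and 0.797). With the highest transcript only, its log2 fold changes were 0.17 and 0.22, and neither passed. The coding transcript was chosen after its values were seen. Its split from the other transcript is uncertain, and near-identical copies of Cycs are listed below. In Cox7b a 526-nt retained-intron transcript held 46.2, 46.1, 43.3 and 47.0% in knockout libraries, 48.3, 49.2 and 47.6% in TAC libraries and 51.1, 51.0 and 51.0% in control libraries. Of the 47 well-expressed members, 7 had under 80% of their FPKM in coding transcripts.

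**Figure D4:**
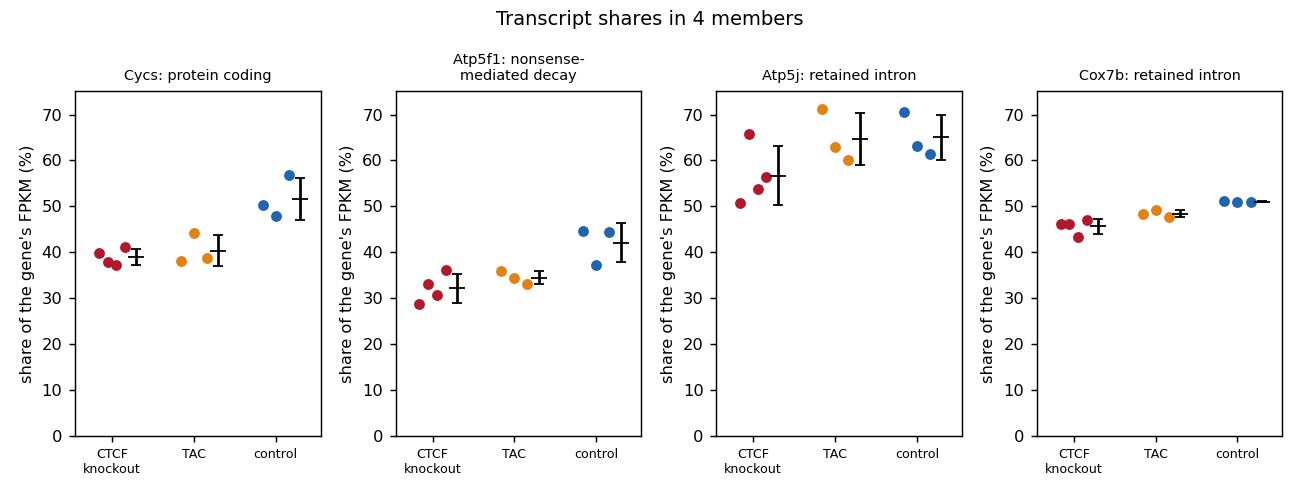
Share of a gene's FPKM (%) held by 1 annotated transcript in each library, for Cycs, Atp5f1, Atp5j and Cox7b, from left to right CTCF knockout, TAC and control; points are libraries and bars mean ± SD. Knockout and TAC shares of the Cycs coding transcript lie at 37.1 to 44.2%, below the 47.9 to 56.8% of control libraries.

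The c subunit, which forms the rotating ring of complex V, is encoded in the same mature form by 3 genes, Atp5g1, Atp5g2 and Atp5g3. Atp5g1 averaged 916 ± 131 FPKM in knockout, 1019 ± 191 FPKM in TAC and 941 ± 201 FPKM in control libraries. Atp5g3 averaged 574 ± 64.8 FPKM in knockout, 591 ± 47.3 FPKM in TAC and 609.9 ± 51.6 FPKM in control libraries. Of the summed FPKM of the 3 genes, Atp5g1 held 56.7 ± 0.800% in knockout, 59.0 ± 2.85% in TAC and 55.3 ± 3.33% in control libraries, and the knockout and TAC ranges overlapped with control. Atp5g2 held 7.65 ± 0.255% in knockout, 6.45 ± 0.706% in TAC and 8.36 ± 0.407% in control libraries. The log2 ratio of Atp5g2 over Atp5g3 was lower by 0.30 in TAC, with no overlap (exact permutation p = 0.1, adjusted 0.196). Summed over all subunits, complex V came to 12429 ± 1577 FPKM in knockout, 12132 ± 1532 FPKM in TAC and 13613 ± 1475 FPKM in control libraries. The other sums, that of IV without the gene not analysed, stood at 89.2% (II), 90.7% (III) and 89.4% (IV) of control in the knockout and at 86.2%, 93.7% and 85.6% in TAC.

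Atpif1 (chr4:132530555-132533659, minus strand) encodes the inhibitor that binds ATP synthase and blocks its reverse, ATP-consuming action. It measured 263, 267, 310 and 237 FPKM in knockout libraries, 171, 170 and 217 FPKM in TAC libraries and 90.0, 149.5 and 144 FPKM in control libraries. The 3 groups did not overlap, with knockout highest and control lowest. The log2 fold change was 1.10 in the knockout (SE 0.18, limma adjusted p = 0.00146), and the call held in all 27 alternatives, with log2 fold changes of 0.87 to 1.27. In TAC it was 0.56 (SE 0.19, adjusted p = 0.0663), and in knockout over TAC 0.54 (SE 0.18, adjusted p = 0.13), so neither passed. The TAC difference was called under 4 of the 27 alternatives and the knockout over TAC difference under 3. Cox7a2l, which takes part in joining complexes III and IV, averaged 157 ± 15.98 FPKM in knockout, 147 ± 21.9 FPKM in TAC and 147 ± 27.8 FPKM in control libraries. Atp5s and Dmac2 stayed under 22 FPKM and did not pass.

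**Figure D5:**
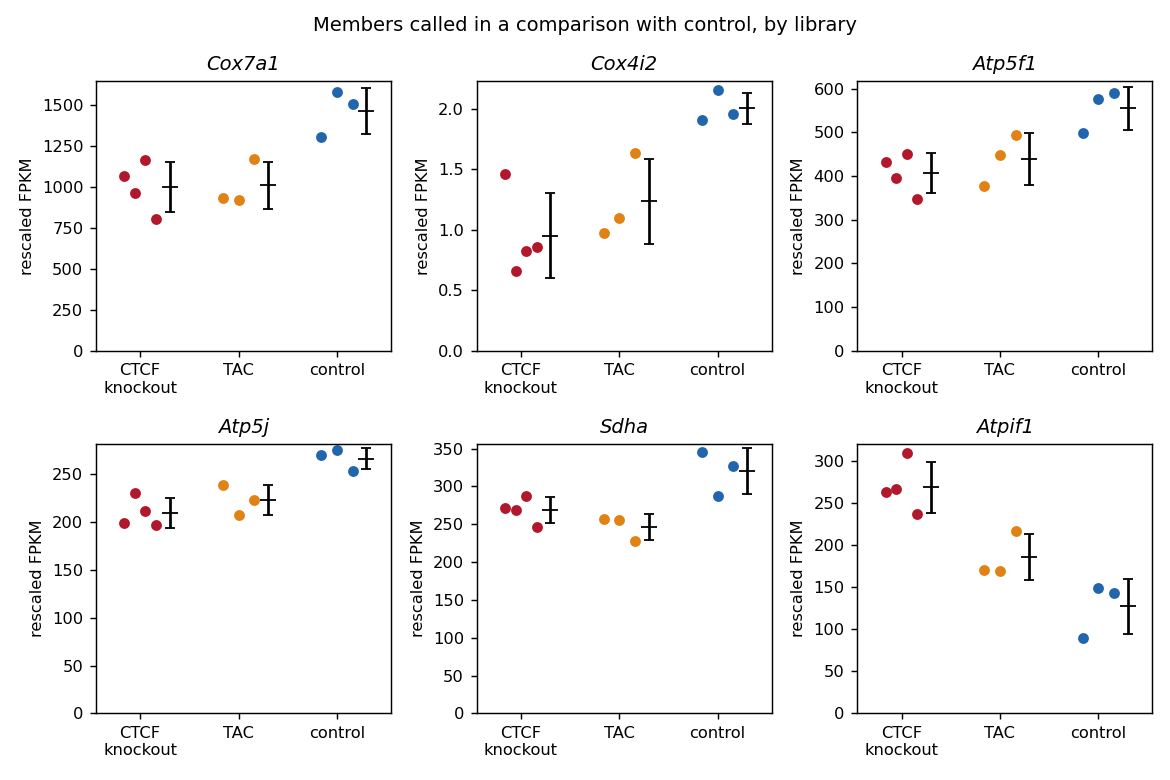
Rescaled FPKM of the 6 members called in a comparison with control, from left to right CTCF knockout, TAC and control; points are libraries and bars mean ± SD, with axes from 0. In Atpif1 the knockout libraries sit at 237 to 310 FPKM, above the control libraries at 90.0 to 149.5 FPKM; in Cox7a1 they sit at 806 to 1169 FPKM, below 1308 to 1583 FPKM.

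By ranges alone, 1 tested member lay above and 5 below control in every knockout library, where 30.8% of all tested genes had groups that did not overlap, 14.8% higher and 16% lower. The 5 were Cox7a1, Cox7b, Cox4i2, Atp5f1 and Atp5j. In TAC 2 lay above (Cox6a1 and Atpif1) and 7 below (the same 5, with Sdha and Sdhc), beside 31.6% of all tested genes, 16% higher and 15.7% lower. Between knockout and TAC libraries no member was called by limma, 4 had an unadjusted p under 0.05, and 3.28% of all tested genes were called, 1.58% higher and 1.7% lower. The balance of these calls depended on the processing: 242 were higher and 135 lower after division by the library sum, 212 higher and 120 lower with no rescaling, and 95 higher and 173 lower with a mean of at least 5 FPKM. The median log2 fold change of the members for knockout over TAC was 0.00, between -0.07 without TAC library 1 and 0.10 without TAC library 3. Atpif1 and Cox8a lay higher in every knockout library than in any TAC library, beside 18.1% of all tested genes with no overlap, 8.43% higher and 9.64% lower.

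The rest of the respiratory gene programme was read from lists. Of 38 nuclear subunits of complex I, Ndufs1 fell in the knockout (adjusted p = 0.0453, limma, held in 3 of 10 fits without a library). The others did not pass, so 2.63% were called, beside 20.8% of all tested genes. The median log2 fold change of the 38 was -0.10. None passed in TAC (median -0.08, with 1 at unadjusted p under 0.05, limma), beside 15.5% of all tested genes. Of 40 tested assembly factors of complexes II to V, 2 rose and 7 fell in the knockout, and 1 rose and 1 fell in TAC. That is 22.5% called in the knockout, beside 20.8% of all tested genes, and 5% in TAC, beside 15.5%. Cox19, a copper-handling factor for complex IV, rose to 43.8 ± 3.20 FPKM in knockout and 48.8 ± 6.91 FPKM in TAC, against 24.1 ± 5.37 FPKM in control libraries (adjusted p = 0.00222 and 0.00174, limma). Fmc1, an assembly factor of complex V, fell to 50.9 ± 5.45 FPKM in knockout, against 80.9 ± 1.41 FPKM in control libraries (adjusted p = 0.00226), and stood at 63.4 ± 8.76 FPKM in TAC. Ttc19 (complex III), Tmem70 (complex V), Cox16 and Lrpprc also fell in the knockout, by 0.51, 0.42, 0.34 and 0.38 on the log2 scale. Cox16 fell in TAC too, by 0.38 (adjusted p = 0.023). Without each library in turn the calls of Cox19, Fmc1, Ttc19 and Tmem70 held in all 10 fits. Both Cox16 calls were lost without control library 2 or 3, the knockout call also without knockout library 2 and the TAC call also without TAC library 2. The Lrpprc call was lost without control library 2 or 3 or knockout library 1 or 3.

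Of 13 transcriptional regulators of respiratory genes, Ppara fell in the knockout, to 14.9 ± 1.41 FPKM against 23.7 ± 4.65 FPKM in control libraries (adjusted p = 0.0244, limma), and the others did not pass. That is 7.69% called, beside 20.8% of all tested genes. The Ppara call was lost without control library 1 or 2 or knockout library 1 (limma adjusted p up to 0.0887). None of the 13 passed in TAC (1 at unadjusted p under 0.05), where 15.5% of all tested genes were called. Of 6 mitochondrially encoded partners, 2 could be tested, mt-Cytb and mt-Co2, and neither passed: mt-Co2 averaged 14320 ± 615 FPKM in knockout, 14980 ± 1449 FPKM in TAC and 18774 ± 3103 FPKM in control libraries. mt-Co1 was listed at 0 in all libraries, and mt-Co3, mt-Atp6 and mt-Atp8 in all but knockout library 2. A listed 0 may be a missing value and is not read as absent RNA.

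Near-identical copies limit a few members. Of the 47 well-expressed members, 6 had other annotated transcripts that matched at least 100 nt at 95% identity and together carried over 5% of the member's FPKM: Cycs (57.8%), Atp5g2 (27.5%), Cox7a2l (13.3%), Atp5l (10.2%), Cox7c (9.80%) and Atp5g1 (6.28%). Their values are uncertain, since reads can be split between copies. The search used only the transcript of highest mean FPKM of each member. In Cycs, Atp5j and Cox5b that transcript is not classed as coding, so copies of their coding transcripts were not sought. Atp5f1 overlaps Wdr77, and Atp5j overlaps Gabpa, both on the opposite strand, at 11.6 and 12.2 FPKM. The libraries are stranded per the labels, but whether the quantification used the strand is not given in the sources used here.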

How the data were processed

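The authors aligned reads to the mouse genome (mm10) with TopHat2 2.1.0 and Bowtie2 and quantified transcripts with Cufflinks 2.2.1, per the submitters' processing notes, which also name Cuffdiff. The deposited values are FPKM per transcript with their intervals and coverage. Here FPKM was summed per gene ID over 109869 transcripts; 22 IDs listed at 0 in some libraries and at a median of 100 FPKM or more elsewhere, and 7765 without a transcript of 300 nt, were set apart. Libraries were rescaled by median-of-ratios factors from genes of mean FPKM of at least 1. The 11358 genes with a rescaled mean of at least 1 were tested with limma 3.58.1 (R 4.3.3; trend) on log2(FPKM + 1) over all 10 libraries, two-sided, with Benjamini-Hochberg adjustment, called at adjusted p under 0.05. Simulated data with independent noise for each gene served as a test of this fit. They do not cover deviations that the genes of a library share. Ratios of isoforms had an exact permutation test (SciPy 1.17.1). Copies were sought with BLAST+ 2.17.0. FPKM gives no read counts, so no depth is known. The limma p-values weigh a group difference against the spread between these libraries, which the fit moderates over all tested genes.

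Members and lists were chosen with earlier results of these data known. Named were members called in any comparison, members of isoform pairs and the highest and lowest of each complex; from other lists, called genes with the lowest adjusted p. The alternatives changed the pseudocount, filters, scaling, transcripts summed, libraries, covariates and variance model. Sex as a covariate was inferred from Xist and Y-linked genes, which gave 6 female and 4 male libraries. How these fall over the groups is not given here.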

Additional observations from a re-analysis of the deposited data

Results flagged for a closer look

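Among the 4 knockout libraries, knockout library 2 stood apart from the others in 3 mitochondrially encoded partners. mt-Co3 was listed at 22398 FPKM, mt-Atp6 at 11939 FPKM and mt-Atp8 at 14573 FPKM in that library, and all 3 at 0 in the other knockout libraries and in every TAC and control library. These genes were not tested. Whether a listed 0 is a missing value or absent RNA is not given, so the values cannot be read as a difference in expression. Of 60 groups examined in this way, these 3 had a sample far from the rest. With all other values at 0 the test flags any value above 0, so its usual rate of about 1 group in 20 does not apply.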

How the results depend on the processing

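Across 27 alternatives for the members (25 planned and 2 added after seeing the data, which took the scale factors from other genes; those for genes that are no members and for coding transcripts without a library were also added then), the Atpif1 call in the knockout held in all, and the Cox4i2 call in the 26 that tested it, and every called member kept its direction. The number of members called higher in the knockout, 1 in the main analysis, was 3 after division by the library sum, 3 after quantile normalization, 3 with factors from genes of mean at least 10 and 2 with the replicate block; the number called lower, 4, was 1 without rescaling, 2 with the replicate block, 6 after quantile normalization and 5 with factors from genes of mean at least 10. The block leaves out knockout library 4, whose number no other group has. In TAC, members called higher numbered 0, against 2 after division by the library sum, 1 after quantile normalization, 1 with the replicate block and 1 with factors from genes of mean at least 10. Members called lower in TAC, 2, numbered 0 with no filter on the mean, no rescaling, only the groups compared, sex as a covariate or factors from all genes above 0; 1 after division by the library sum, with the replicate block or with the robust fit; 5 with factors from genes of mean at least 10; and 14 after quantile normalization. For knockout over TAC, 3 members were called higher after quantile normalization and 1 with factors from genes of mean at least 10. Among all genes, calls went from 2362 to 1487 in the knockout and from 1755 to 1167 in TAC with a mean of at least 5, where fewer genes are tested, and to 1153 in TAC with only the groups compared; for knockout over TAC they went from 372 to 195 with no filter, 198 with the replicate block and 233 with sex as a covariate. The causes of the other changes were not tested. Replicate numbers share no stated origin, and libraries of the same number did not deviate together (correlations of -0.36 to 0.33), so the replicate block pairs nothing known. Between libraries of different number and group the correlations over the tested genes ran from -0.35 to 0.46. The highest was that of knockout library 4 with TAC library 1, and what such libraries share was not tested. Division by the library sum moved the median of all genes by 0.15 in the knockout and 0.11 in TAC, and no rescaling by 0.11 in the knockout; calls in the knockout were then 78.7% and 73.5% higher, against 50.9%, and in TAC 76.5% and 66.4%, against 52.3%. Relative to all genes, the members' median was then -0.10 and -0.09 in the knockout and -0.15 and -0.16 in TAC; without 1 library it ran from -0.19 to -0.02 in the knockout, nearest 0 without knockout library 4, and from -0.24 to -0.09 in TAC. Leaving out 1 library gave 1 to 2 members higher and 1 to 4 lower in the knockout, 0 higher and 0 to 2 lower in TAC, 0 to 1 higher and 0 lower for knockout over TAC, and 1689 to 2320, 1236 to 1659 and 133 to 444 calls among all genes. The log2 ratio differences in the knockout then ranged from -0.63 to -0.46 for Cox6a2 over Cox6a1, -0.55 to -0.53 for Cox7a1 over Cox7a2 and -0.57 to -0.39 for Cox8b over Cox8a, and in TAC from -0.71 to -0.42, -0.39 to -0.33 and -0.33 to -0.14.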
